A study of Homo sapiens with 10 samples.

Results

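The genes described here are 6 transcription factors that drive the epithelial to mesenchymal transition (EMT), ZEB1, ZEB2, SNAI1, SNAI2, TWIST1 and TWIST2, together with VIM, the gene of the filament protein vimentin. They were chosen by gene symbol, and each of the 7 was listed once among the 52402 gene symbols of the count tables. All 7 passed the filter on low counts and were among the 14884 genes tested. The cells were BEAS2B, an immortalized human bronchial epithelial cell line with a wild type genotype per the labels. mRNA was sequenced in 5 groups with 2 libraries each. Lipofectamine 2000 was the transfection reagent in all groups. The groups differed in the small RNA, which was a scrambled miRNA control (miRcontrol), a mimic of miR-3124-5p (miR3124_mimic), a mimic of miR-200b-3p (miR200b_mimic), an inhibitor of miR-92b (miR92b_inhibitor), or the 3 reagents together (the 3-miRNA mixed group). The study's methods give a final concentration of 50 nM and 48 h until RNA extraction. They do not state the share of each reagent in the mixed group, and the labels do not state whether the inhibitor targets the 3p or the 5p arm of miR-92b. The miRNAs themselves were not measured in these poly(A) libraries. The question put to the data was how each reagent, alone or in the mixture, moved the EMT factors.

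In EMT, epithelial cells lose their junctions and polarity and take on features of mesenchymal cells. ZEB, Snail and Twist proteins bind E-box motifs in DNA, and ZEB and Snail proteins repress epithelial genes such as the one for E-cadherin there. The miR-200 family and the ZEB genes are known for mutual repression: miR-200 miRNAs bind the 3′UTRs of ZEB1 and ZEB2 mRNA, and ZEB proteins repress the miR-200 genes. Vimentin is an intermediate filament protein of mesenchymal cells, and its level is widely used as a marker of EMT.

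The mature miRNAs are shown first, because bases 2 to 8 of a miRNA, its seed, select the mRNAs that it pairs with. They were read 5′ to 3′ from RefSeq (GRCh38.p14), with the seed in capitals. No seed was shared among the 4 sequences. Both arms of miR-92b are given, since the arm of the inhibitor was not stated. All 4 lie on the plus strand, at chr1:1167160-1167181, chr1:248826383-248826403, chr1:155195237-155195258 and chr1:155195196-155195217 in the order printed.
hsa-miR-200b-3p: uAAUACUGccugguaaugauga
hsa-miR-3124-5p: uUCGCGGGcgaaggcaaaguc
hsa-miR-92b-3p: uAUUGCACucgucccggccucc
hsa-miR-92b-5p: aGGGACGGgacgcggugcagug

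The word complementary to the miR-200b-3p seed, CAGTATT, was searched in the mRNA strand of each gene's 3′UTR, using its longest coding transcript (GENCODE v29, GRCh38). ZEB1 held it 6 times in a 3′UTR of 2549 bases, and ZEB2 held it 5 times in a 3′UTR of 5370 bases. ZEB2 held 1 more in its coding sequence. SNAI2 held 1 in its 3′UTR, and SNAI1, TWIST1, TWIST2 and VIM held none. Of 19080 human 3′UTRs, 16.0% held the word at least once. The words of ZEB1 and ZEB2 are printed with their surroundings as 25 bases of the mRNA strand, 5′ to 3′, with the word in capitals. A word followed by an A, which occurred 3 times in ZEB1 and 4 times in ZEB2, is the longer match that miRNAs are known to favor. A match of letters is a description and no evidence of binding in these cells.
ZEB1 site 1 (chr10:31527616-31527640, plus strand): gcattgttttatcttatCAGTATTa
ZEB1 site 2 (chr10:31527710-31527734, plus strand): atatgctaaatccgcttCAGTATTt
ZEB1 site 3 (chr10:31528139-31528163, plus strand): ctgtaagtgccatttctCAGTATTt
ZEB1 site 4 (chr10:31528490-31528514, plus strand): agctgatttttacctatCAGTATTa
ZEB1 site 5 (chr10:31528560-31528584, plus strand): tatgtcttcaaacctggCAGTATTa
ZEB1 site 6 (chr10:31529211-31529235, plus strand): attcttttcatcattatCAGTATTt
ZEB2 site 1 (chr2:144389052-144389076, minus strand): cccgcactaccatacatCAGTATTt
ZEB2 site 2 (chr2:144388989-144389013, minus strand): ctcgcactacaatgcatCAGTATTa
ZEB2 site 3 (chr2:144388631-144388655, minus strand): ctttgaagcacccatgtCAGTATTa
ZEB2 site 4 (chr2:144388546-144388570, minus strand): ttgttcattaattttgtCAGTATTa
ZEB2 site 5 (chr2:144388415-144388439, minus strand): tttcatactgtagtgtaCAGTATTa

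The seed words of the other reagents were rarer in these genes. The miR-3124-5p word, CCCGCGA, was in no 3′UTR or coding sequence of the 7 genes, and 0.618% of all 3′UTRs held it. TWIST1 held it once in its 5′UTR. VIM held its 6-base core, CCGCGA, once in the coding sequence, as did 13.3% of 19559 coding sequences. The miR-92b-3p word, GTGCAAT, occurred 3 times in the 3′UTR of ZEB2 and in 10.9% of all 3′UTRs. The miR-92b-5p word, CCGTCCC, was in none of the 7 3′UTRs and in 3.76% of all. Outside the 3′UTRs, SNAI2 held 1 GTGCAAT in its coding sequence, and ZEB2 and TWIST1 each held 1 CCGTCCC in the 5′UTR. The shares of all coding sequences and 5′UTRs with these miR-92b words were not counted.

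Library totals ranged from 13587666 to 18503890 counts. The libraries of a pair differed by more than counting error in every group, with a chi-square of 1.76 to 2.67 per degree of freedom over the raw counts, so none was a duplicate of the other. No label says whether the libraries of a group were separate transfections, so the p-values measure the spread between these libraries, which may be technical. Of 10 markers of bronchial epithelium, CDH1, KRT14 and TP63 were at the floor of at most 3 counts in both miRcontrol libraries, while the keratins KRT7, KRT8 and KRT18 carried most of the summed level of 2227 to 2273 normalized CPM (counts divided by the adjusted library total). In miR200b_mimic and in the mixed group the sum was 4202 to 4282 and 4091 to 4118. It was 2785 to 2794 in miR3124_mimic and 2102 to 2192 in miR92b_inhibitor. The 8 fibroblast markers summed to 226 to 235 in miRcontrol, 335 to 344 in miR3124_mimic, 143 to 146 in miR200b_mimic, 219 to 231 in miR92b_inhibitor and 207 to 208 in the mixed group, with DCN at 0 in all 10 libraries. THY1 carried most of this sum, at 207 to 215 normalized CPM in miRcontrol, and COL1A1 of the same list was higher in miR200b_mimic, where the sum was lowest. KRT19, of the epithelial list, went against that list's sum: it was 10.5-fold lower in miR3124_mimic (adjusted p = 8.31e-17) and 3.13-fold lower in the mixed group (adjusted p = 1.15e-10) than in miRcontrol. The 5 endothelial markers summed to 0.401 to 0.537 in miRcontrol, 3.28 to 4.99 in miR3124_mimic, 0.523 to 0.575 in miR200b_mimic, 0.350 to 0.602 in miR92b_inhibitor and 1.05 to 1.88 in the mixed group. Among them CDH5, the gene of VE-cadherin, had 1 count in each miRcontrol library and 59 and 44 in miR3124_mimic, at least 18.6-fold more, in the group where VIM and SNAI2 were lowest. CDH5 passed the filter on low counts only through that group, so its test is no separate support for the rise. CD68, a lysosomal gene abundant in macrophages, stood at 26.3 and 27.0 normalized CPM in miRcontrol, 38.8 and 40.7 in miR92b_inhibitor and 17.3 and 19.8 in miR200b_mimic. These sums and markers moved with the groups, and their part in the results below was not tested. In bulk RNA, fewer cells of a type and less RNA per cell cannot be told apart.

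Per kilobase of transcript, VIM was by far the most abundant of the 7 genes in miRcontrol, at 1780 CPM per kb. ZEB1 stood at 10.1 and SNAI2 at 9.57 CPM per kb. TWIST2 was at 5.35, TWIST1 at 4.94 and ZEB2 at 3.37. SNAI1 was the lowest at 0.348 CPM per kb, with 8 to 41 counts per library over all groups, so its values are the least precise.

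**Figure D1:**
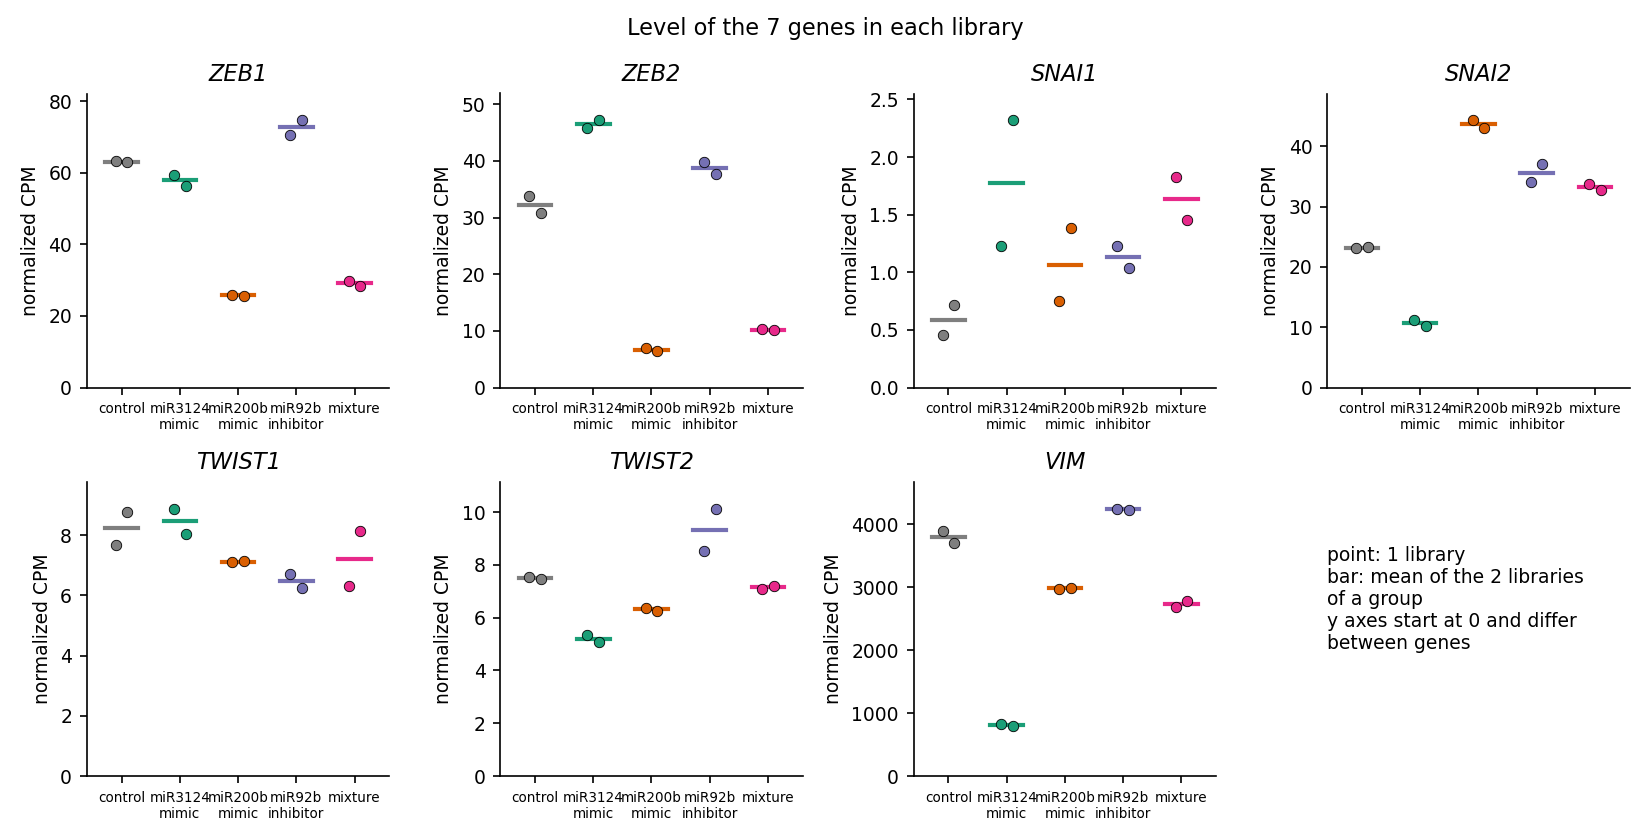
Normalized CPM (y axis, starting at 0 and scaled for each gene) of the 7 genes in each library, by group (x axis). Points are single libraries and bars are the mean of the 2 libraries. ZEB1 and ZEB2 were lowest in miR200b_mimic and in the mixed group (mixture), VIM and SNAI2 were lowest in miR3124_mimic, and SNAI1 was lowest in miRcontrol (control).

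ZEB1 and ZEB2, the zinc finger repressors targeted by miR-200, had their lowest levels in miR200b_mimic and their next lowest in the mixed group. ZEB1 (chr10:31318495-31529814) stood at 63.3 and 62.9 normalized CPM in miRcontrol and at 25.9 and 25.6 in miR200b_mimic. It stood at 29.7 and 28.5 in the mixed group, at 70.7 and 74.7 in miR92b_inhibitor, and at 59.4 and 56.4 in miR3124_mimic. Both libraries of each group lay on one side of both miRcontrol libraries. ZEB1 was 2.45-fold lower in miR200b_mimic than in miRcontrol (log2 fold change -1.29, SE 0.0676, adjusted p = 3.55e-21) and 2.17-fold lower in the mixed group (log2 fold change -1.12, SE 0.0639, adjusted p = 9.67e-20). In miR3124_mimic the log2 difference of -0.13 did not pass (SE 0.0586, adjusted p = 0.0676). In miR92b_inhibitor ZEB1 rose by 0.20 on the log2 scale (SE 0.0561, adjusted p = 0.00327), a call that was lost without the second miR92b_inhibitor library (0.17, adjusted p = 0.0777). Here and below, adjusted p-values are those of the edgeR quasi-likelihood fit over the 14884 genes, after Benjamini-Hochberg correction.

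ZEB2 (chr2:144364364-144524583), the paralog of ZEB1, moved further. It stood at 33.8 and 30.8 normalized CPM in miRcontrol, 6.95 and 6.44 in miR200b_mimic and 10.3 and 10.1 in the mixed group. It was above miRcontrol in miR3124_mimic, at 45.9 and 47.2, and in miR92b_inhibitor, at 39.9 and 37.7. The libraries of no group overlapped those of miRcontrol. ZEB2 was 4.84-fold lower in miR200b_mimic (log2 fold change -2.27, SE 0.105, adjusted p = 3.61e-23), the 48th lowest log2 fold change of the 14884 genes, and 3.16-fold lower in the mixed group (-1.66, SE 0.0924, adjusted p = 3.61e-20), the 57th lowest. ZEB1 was 279th lowest and 243rd lowest in the same comparisons. In miR3124_mimic ZEB2 rose 1.44-fold (log2 fold change 0.53, SE 0.0736, adjusted p = 3.91e-08), whereas ZEB1 did not pass there. The rise of ZEB2 in miR92b_inhibitor was 1.20-fold (log2 fold change 0.26, SE 0.0745, adjusted p = 0.00426), and it was lost without the second miRcontrol library (0.20, adjusted p = 0.110) or without the first miR92b_inhibitor library (0.22, adjusted p = 0.0621).

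Set against each other, miR200b_mimic and the mixed group differed in ZEB2 but not detectably in ZEB1. ZEB2 was 1.53-fold higher in the mixed group than in miR200b_mimic (log2 difference 0.62, SE 0.128, adjusted p = 0.000111). The difference of ZEB1 in the same direction, 0.18, missed the threshold (SE 0.0755, adjusted p = 0.0574), and passed it when library totals replaced the normalization (0.20, adjusted p = 0.0286) or when at least 10 counts were required in every library (0.19, adjusted p = 0.0365). From high to low, the order of ZEB1 was miR92b_inhibitor, miRcontrol, miR3124_mimic, the mixed group and miR200b_mimic, and the neighbours that did not differ were miRcontrol and miR3124_mimic, and the mixed group and miR200b_mimic. The order of ZEB2 was miR3124_mimic, miR92b_inhibitor, miRcontrol, the mixed group and miR200b_mimic, with each neighbouring pair apart at an adjusted p of at most 0.00426.

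**Figure D2:**
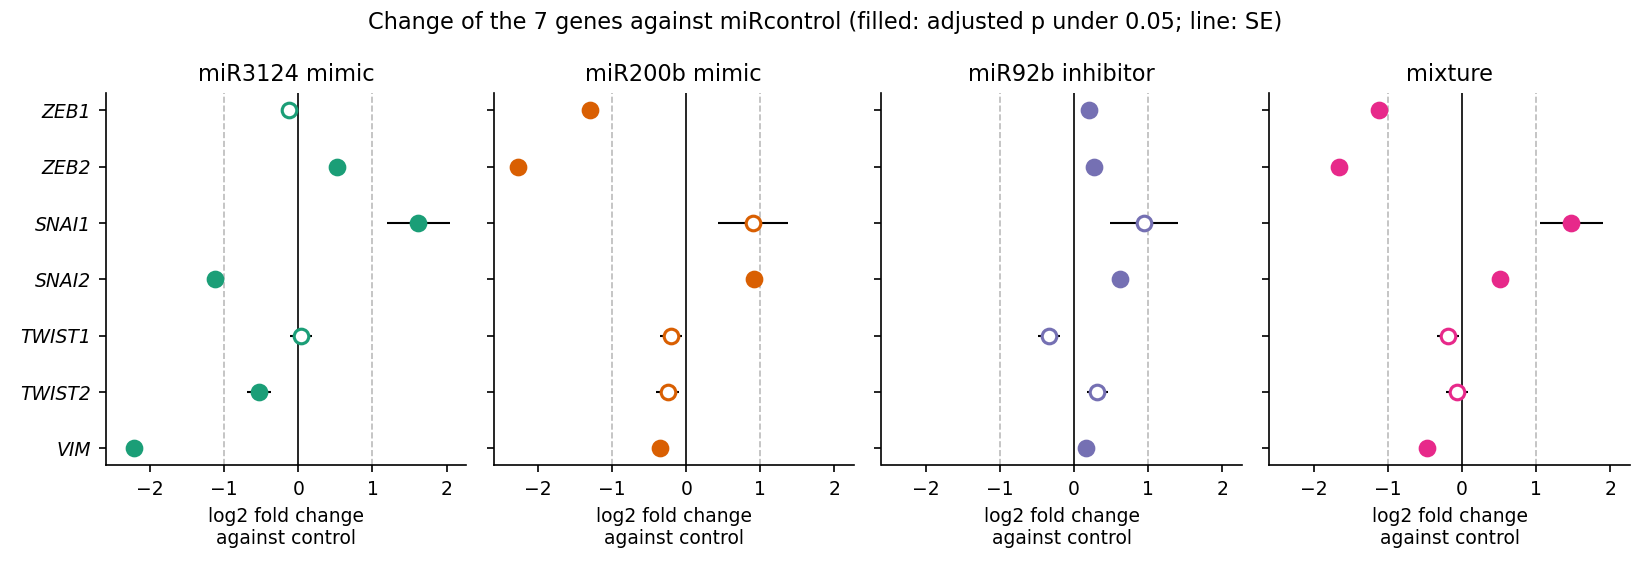
Log2 fold change of the 7 genes (rows) against miRcontrol in miR3124_mimic, miR200b_mimic, miR92b_inhibitor and the mixed group (mixture). Filled circles have an adjusted p under 0.05, lines are the SE and dashed lines mark a fold of 2. VIM at -2.23 was the lowest value in miR3124_mimic and ZEB2 at -2.27 the lowest in miR200b_mimic, while no gene passed a fold of 2 in miR92b_inhibitor.

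Among genes with more miR-200b-3p words in the 3′UTR, log2 fold changes in miR200b_mimic lay lower. The median was 0.02 over 9856 tested genes with no word, -0.04 over 1821 genes with 1 word, -0.12 over 428 genes with 2, and -0.20 over 137 genes with 3 or more. The share called lower rose along these classes from 18.4% to 30.6%, 38.3% and 49.6%. ZEB2 was the 2nd lowest and ZEB1 the 10th lowest of the 137 genes with at least 3 words, of which 13 (9.49%) were lower by at least 2-fold. In the mixed group the medians were 0.0046, -0.02, -0.0053 and -0.04, and ZEB2 and ZEB1 were 2nd and 4th lowest of the 137. In miR3124_mimic the medians went the other way, from -0.0075 with no word to 0.12 with 3 or more, where ZEB1 stood at -0.13 and ZEB2 at 0.53. SNAI2, with 1 word, rose in miR200b_mimic. These values are descriptions without a test, and 3′UTRs with more words are also longer.

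**Figure D3:**
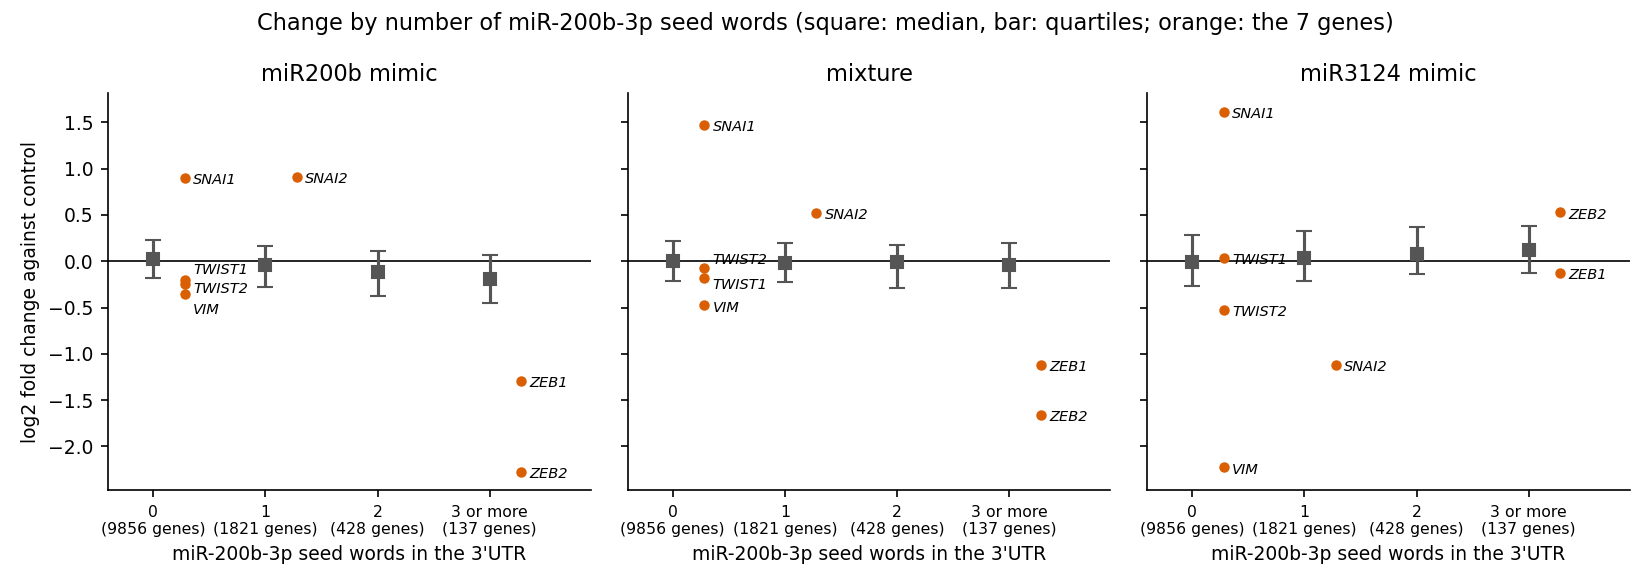
Log2 fold change against miRcontrol (y axis) by the number of miR-200b-3p seed words in the 3′UTR (x axis) in miR200b_mimic, the mixed group (mixture) and miR3124_mimic. Squares are the medians and bars the quartiles of all tested genes of a class, and orange points are the 7 genes. ZEB1 and ZEB2, at -1.29 and -2.27 in miR200b_mimic, lay far below the quartiles of the 137 genes with 3 or more words.

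SNAI1 and SNAI2, which encode the zinc finger repressors Snail and Slug, did not move alike. SNAI2 (chr8:48917604-48921740) stood at 23.1 and 23.3 normalized CPM in miRcontrol, 11.2 and 10.2 in miR3124_mimic and 44.3 and 43.1 in miR200b_mimic. It stood at 34.0 and 37.1 in miR92b_inhibitor and at 33.8 and 32.8 in the mixed group. Both libraries of miR3124_mimic lay below, and all libraries of the other groups above, those of miRcontrol. SNAI2 was 2.17-fold lower in miR3124_mimic (log2 fold change -1.12, SE 0.0984, adjusted p = 1.27e-13). It was 1.88-fold higher in miR200b_mimic (0.91, SE 0.0775, adjusted p = 8.25e-14), where ZEB1 and ZEB2 were lowest. It rose 1.53-fold in miR92b_inhibitor (0.61, SE 0.0782, adjusted p = 1.56e-08) and 1.43-fold in the mixed group (0.52, SE 0.0786, adjusted p = 3.56e-07). From high to low the order was miR200b_mimic, miR92b_inhibitor, the mixed group, miRcontrol and miR3124_mimic, and of the neighbours only miR92b_inhibitor and the mixed group did not differ (log2 difference of the mixed group -0.10, SE 0.0731, adjusted p = 0.317).

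SNAI1 (chr20:49982999-49988886) was lowest in miRcontrol, at 0.458 and 0.716 normalized CPM, which were 8 and 12 counts. It stood at 1.23 and 2.32 in miR3124_mimic and at 1.82 and 1.45 in the mixed group. Its levels were 0.748 and 1.38 in miR200b_mimic and 1.23 and 1.04 in miR92b_inhibitor. The libraries of each of these 4 groups lay above both miRcontrol libraries, but the libraries of miR3124_mimic, with 18 and 41 counts, and of miR200b_mimic, with 10 and 24 counts, lay far apart. SNAI1 rose 3.07-fold in miR3124_mimic (log2 fold change 1.62, SE 0.426, adjusted p = 0.00131) and 2.78-fold in the mixed group (1.47, SE 0.426, adjusted p = 0.00403). The first call was lost without the second miR3124_mimic library (1.06, adjusted p = 0.126), and the second without the first miRcontrol library (1.18, adjusted p = 0.0733). The differences in miR200b_mimic (0.90, SE 0.471, adjusted p = 0.128) and miR92b_inhibitor (0.94, SE 0.457, adjusted p = 0.106) did not pass. No neighbours in its order of levels, miR3124_mimic, the mixed group, miR92b_inhibitor, miR200b_mimic and miRcontrol, differed at an adjusted p under 0.05.

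TWIST1 and TWIST2 encode basic helix-loop-helix factors. Their log2 differences from miRcontrol lay between -0.53 and 0.31 in all groups, while each of the other 5 genes passed a fold of 2 in at least 1 group. TWIST1 (chr7:19020991-19117672) stood at 7.67 and 8.77 normalized CPM in miRcontrol, 8.88 and 8.03 in miR3124_mimic and 7.10 and 7.13 in miR200b_mimic. It stood at 6.71 and 6.24 in miR92b_inhibitor and at 6.30 and 8.13 in the mixed group. The libraries of miR3124_mimic and of the mixed group overlapped those of miRcontrol, and those of miR200b_mimic and miR92b_inhibitor lay below. No log2 difference from miRcontrol passed (-0.34 in miR92b_inhibitor, -0.21 in miR200b_mimic, -0.19 in the mixed group and 0.04 in miR3124_mimic, with SE of 0.147 to 0.153 and an adjusted p of at least 0.0713). Its levels fell in the order miR3124_mimic, miRcontrol, the mixed group, miR200b_mimic and miR92b_inhibitor, and no neighbours differed at an adjusted p under 0.05.

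TWIST2 (chr2:238848032-238910543) stood at 7.56 and 7.46 normalized CPM in miRcontrol and at 5.33 and 5.09 in miR3124_mimic. It stood at 7.08 and 7.21 in the mixed group, 6.36 and 6.27 in miR200b_mimic and 8.52 and 10.1 in miR92b_inhibitor. All libraries but those of miR92b_inhibitor lay below miRcontrol. The fall in miR3124_mimic, 1.44-fold, was the only one that passed (log2 fold change -0.53, SE 0.158, adjusted p = 0.00435). The difference in miR92b_inhibitor, 0.31, missed the threshold (SE 0.140, adjusted p = 0.0760) and passed it without the first library of that group (0.43, adjusted p = 0.0449). In miR200b_mimic and the mixed group the log2 differences were -0.25 (SE 0.154) and -0.07 (SE 0.146). Its levels fell in the order miR92b_inhibitor, miRcontrol, the mixed group, miR200b_mimic and miR3124_mimic, and no neighbours passed the test, although their libraries did not overlap.

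VIM (chr10:17228259-17237593) had its largest fall in miR3124_mimic and not in miR200b_mimic. It stood at 3894 and 3707 normalized CPM in miRcontrol and at 827 and 799 in miR3124_mimic. It stood at 2684 and 2775 in the mixed group, 2972 and 2992 in miR200b_mimic and 4247 and 4232 in miR92b_inhibitor. The libraries of no group overlapped those of any other. VIM was 4.68-fold lower in miR3124_mimic (log2 fold change -2.23, SE 0.0343, adjusted p = 2.77e-42), the 27th lowest of all genes. Its 3′UTR and coding sequence held no CCCGCGA word, and its coding sequence held 1 CCGCGA core. Binding of the mimic to VIM mRNA was not tested. VIM was 1.27-fold lower in miR200b_mimic (-0.35, SE 0.0324, adjusted p = 1.19e-12) and 1.39-fold lower in the mixed group (-0.48, SE 0.0324, adjusted p = 4.64e-17). In miR92b_inhibitor it rose 1.12-fold (0.16, SE 0.0323, adjusted p = 0.000109). From high to low the order was miR92b_inhibitor, miRcontrol, miR200b_mimic, the mixed group and miR3124_mimic, and all neighbours differed. The difference of -0.13 between the mixed group and miR200b_mimic (adjusted p = 0.00132) was lost without the first library of the mixed group (-0.10, adjusted p = 0.0535).

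The counts of genes called were read against all genes tested, since these comparisons called many genes. An adjusted p under 0.05 was reached by 5 of the 7 genes in miR3124_mimic (51% of all genes), 4 in miR200b_mimic (40.6%), 4 in miR92b_inhibitor (35.7%) and 5 in the mixed group (42.7%). These counts lay about 1 to 2 genes above what the background shares give for 7 genes. The 4 genes called in miR92b_inhibitor, ZEB1, ZEB2, SNAI2 and VIM, were all higher, and 17.5% of all genes were called higher there and 18.2% lower. In the other 3 comparisons 2, 1 and 2 of the 7 genes were higher and 3 in each were lower, beside 25.7%, 21.4% and 21.5% of all genes higher and 25.3%, 19.1% and 21.1% lower. At a fold of at least 2, SNAI1 was higher and SNAI2 and VIM were lower in miR3124_mimic, where 5.37% of all genes were higher and 2.75% lower. ZEB1 and ZEB2 were lower in miR200b_mimic (2.72% of all genes higher, 2.16% lower). In the mixed group SNAI1 was higher and ZEB1 and ZEB2 were lower (3.14% higher, 1.53% lower). None of the 7 passed in miR92b_inhibitor (0.988% higher, 0.927% lower). The libraries did not overlap those of miRcontrol for 6 of the 7 genes in miR3124_mimic (73.9% of all genes), 7 in miR200b_mimic (67.3%), 7 in miR92b_inhibitor (65.7%) and 6 in the mixed group (69.5%). The 4 comparisons share the miRcontrol libraries. The median log2 fold change of all genes lay between -0.0061 and 0.0039.

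The mixed group was also compared with each single transfection. VIM was 3.36-fold higher in the mixed group than in miR3124_mimic (log2 difference 1.75, adjusted p = 1.50e-37), SNAI2 was 3.11-fold higher (1.64, adjusted p = 4.78e-20), ZEB1 was 1.99-fold lower (-0.99, adjusted p = 1.36e-17) and ZEB2 was 4.55-fold lower (-2.19, adjusted p = 2.24e-25). TWIST2 was also higher (0.46, adjusted p = 0.0139), which was lost with DESeq2 (adjusted p = 0.0823) and without the second library of either group (adjusted p = 0.0912 and 0.0609). Thus 5 of the 7 genes differed, beside 49.1% of all genes. Between the mixed group and miR200b_mimic 3 genes differed, beside 38.6% of all, and these were ZEB2, SNAI2 (-0.39, adjusted p = 1.88e-05) and VIM. Between the mixed group and miR92b_inhibitor 4 differed, beside 39.6% of all, with ZEB1 (-1.32), ZEB2 (-1.92), VIM (-0.64) and TWIST2 (-0.39) lower in the mixed group, of which the TWIST2 call was lost with DESeq2 (adjusted p = 0.140), without the second miR92b_inhibitor library (-0.26, adjusted p = 0.289) and without either library of the mixed group (adjusted p = 0.102 and 0.0762). Among the single transfections, 4 genes differed between miR3124_mimic and miR200b_mimic beside 57.8% of all genes, 6 between miR3124_mimic and miR92b_inhibitor beside 58.8%, and 5 between miR200b_mimic and miR92b_inhibitor beside 50.5%. The largest of these differences were ZEB2, 6.98-fold higher in miR3124_mimic than in miR200b_mimic, again ZEB2, 5.81-fold lower in miR200b_mimic than in miR92b_inhibitor, and then VIM, 5.22-fold lower in miR3124_mimic than in miR92b_inhibitor.

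The mixed group was then set against the sum of the 3 single log2 fold changes, which is the change expected if the single changes multiplied at the doses used alone. For ZEB1 the sum was -1.22 and the mixed group gave -1.12, a departure of 0.10 (SE 0.125, adjusted p = 0.645). For ZEB2 the sum was -1.48 and the mixed group gave -1.66, a departure of -0.17 (SE 0.184, adjusted p = 0.574). SNAI2 departed by 0.11 (SE 0.169, adjusted p = 0.711). None of these differed detectably from the sum. For VIM the sum was -2.42 and the mixed group gave -0.48, so that its level was 3.84-fold above the summed change (departure 1.94, SE 0.0641, adjusted p = 1.97e-27). VIM was the only one of the 7 genes with a departure that passed, beside 21.7% of all genes. SNAI1 had a sum of 3.46 and stood at 1.47, but the departure of -1.98 had an SE of 0.892 and did not pass (adjusted p = 0.112). The departures of TWIST1 (0.33, SE 0.299) and TWIST2 (0.39, SE 0.300) did not pass either. Since the amount of each reagent in the mixture is not known, dose and combination cannot be told apart.

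**Figure D4:**
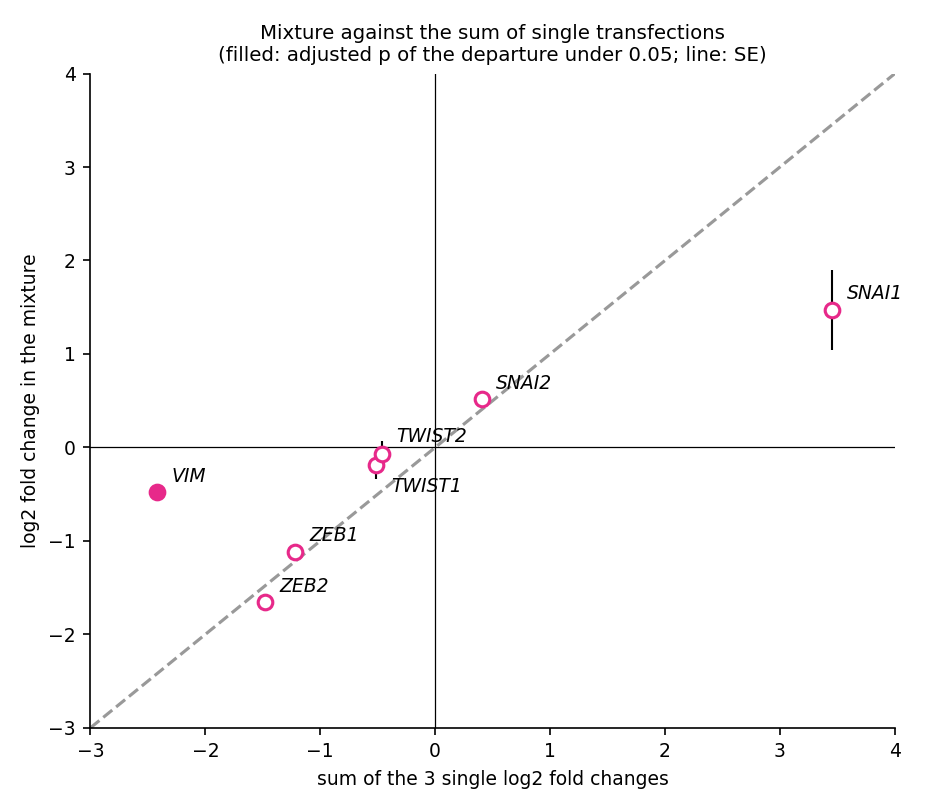
Log2 fold change against miRcontrol in the mixed group (y axis, line: SE) against the sum of the log2 fold changes of the 3 single transfections (x axis) for the 7 genes. The dashed line marks equality, and a filled circle has an adjusted p of the departure under 0.05. ZEB1 and ZEB2 lay near the line, and VIM, with a sum of -2.42 and a mixed-group change of -0.48, lay above it.

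Epithelial genes that EMT factors are known to repress were measured next, from a list of 24 of which 17 were tested. The miR200b_mimic libraries had 14 of the 17 higher and none lower, with 11 of them higher by at least 2-fold and a median log2 fold change of 1.42. The mixed group had 13 higher and 1 lower, with a median of 0.97. None was higher and 9 were lower in miR92b_inhibitor (median -0.37), while miR3124_mimic had 1 higher and 4 lower (median 0.04, or 0.10 with genes at the floor set at their bound). Among all genes, 21.4% were called higher and 19.1% lower in miR200b_mimic (2.72% higher by at least 2-fold), 21.5% and 21.1% in the mixed group, 17.5% and 18.2% in miR92b_inhibitor, and 25.7% and 25.3% in miR3124_mimic. CRB3, CDH1, EPCAM and ST14 had fewer than 10 counts in every library outside miR200b_mimic and the mixed group. They passed the filter on low counts only because they were high there, which tilts the counts and medians of both groups upward. The list was high in the groups in which ZEB1 and ZEB2 were low. Both groups received the miR-200b-3p mimic, so low ZEB1 and ZEB2 and other effects of the mimic cannot be told apart. The 9 in miR92b_inhibitor became 5 without the first miRcontrol library or without the second miR92b_inhibitor library. The 5 called in miR3124_mimic became 3 without the first miRcontrol or the second miR3124_mimic library, and 3 with library totals.

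CRB3, which encodes a protein of the Crumbs polarity complex, had 1 count in each miRcontrol library and 94 and 110 counts in miR200b_mimic, where it was at least 38.1-fold higher than a floor of 3 counts per library allows in miRcontrol. The mixed group had 51 and 34 counts of it and it was at least 13.3-fold higher there. CDH1, the gene of E-cadherin, had 3 and 2 counts in miRcontrol, 146 and 157 in miR200b_mimic and 46 and 36 in the mixed group, and was at least 56.9-fold and at least 12.8-fold higher against the same floor. EPCAM, an epithelial adhesion molecule, rose from 8 and 2 counts to 137 and 175 in miR200b_mimic (log2 fold change 5.08, SE 0.311) and to 103 and 98 in the mixed group (4.20, SE 0.340). ST14, the gene of the membrane protease matriptase, rose by 4.37 (SE 0.335) and 3.02 (SE 0.381) on the log2 scale in the same groups. All 4 were lower in the mixed group than in miR200b_mimic, with log2 differences of -2.15 for CDH1, -1.52 for CRB3, -0.89 for EPCAM and -1.35 for ST14 (adjusted p of at most 8.13e-05). CLDN7, a tight junction claudin, was the 1 gene called lower in the mixed group, with 16 and 12 counts in miRcontrol and 3 and 2 counts there (at least 4.99-fold lower); it is named after its values were seen. It was also lower in miR92b_inhibitor, with 6 and 1 counts (log2 fold change -2.00, adjusted p = 0.0138), a call lost without the first miRcontrol library (adjusted p = 0.104) or the second miR92b_inhibitor library (adjusted p = 0.256). In miR3124_mimic MARVELD2, the gene of tricellulin, fell by 1.12 on the log2 scale (SE 0.238, adjusted p = 8.66e-05). CDH1 and EPCAM also stand in the list of epithelial markers given above.

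The promoter of CRB3 was chosen after its change had been seen, and it stands for no other gene of the list: the promoter table held 11 of the 24 epithelial genes, so no share over the list was computed. It is shown because ZEB and Snail proteins bind the E-box words CAGGTG and CACCTG, which are the same word on opposite strands. In the RefSeq window from 250 bases before to 50 bases after the gene start (GRCh38.p14), the CRB3 promoter held 5 of them. At least 1 was found in 20.6% of 27305 promoters, and 5 or more in 26 of them (0.0952%). For a promoter picked after its gene had changed, these shares are a description only, and binding was not tested. They are printed 5′ to 3′ on the plus strand with the word in capitals and, in parentheses, the position of the 24 bases. The words begin at -228, -208, -147, -89 and -60 from the gene start.
CRB3 word 1 (chr19:6464034-6464057): ctcgcaatgCAGGTGtaaggtccc
CRB3 word 2 (chr19:6464054-6464077): tccccctcaCACCTGcgcgcttcc
CRB3 word 3 (chr19:6464115-6464138): gtcccgttaCAGGTGcgcccacag
CRB3 word 4 (chr19:6464173-6464196): agcgaggctCAGGTGcacaagccg
CRB3 word 5 (chr19:6464202-6464225): gcgctctccCAGGTGagtgactaa

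Mesenchymal genes known to rise in EMT, a list of 22 of which 18 were tested, did not move as 1 block. The miR3124_mimic group had 10 higher and 2 lower (median log2 fold change 0.32) and miR200b_mimic had 5 higher and 8 lower (-0.30). There were 3 higher and 8 lower in miR92b_inhibitor (-0.18), and 7 higher and 6 lower in the mixed group (0.0088). Of all genes, 51% were called in miR3124_mimic, 42.7% in the mixed group, 40.6% in miR200b_mimic and 35.7% in miR92b_inhibitor, in near equal numbers higher and lower. VIM was lowest in miR3124_mimic, where most called genes of this list were higher. There MMP2, a gelatinase, rose by 2.49 (SE 0.0904), PDGFRB, a growth factor receptor of mesenchymal cells, by 1.95 (SE 0.115), TAGLN, an actin-binding protein of smooth muscle, by 1.45 (SE 0.0515) and SPARC, a matrix glycoprotein, by 1.23 (SE 0.0332) on the log2 scale. In miR200b_mimic LOX, the collagen cross-linking enzyme, fell by 2.11 (SE 0.0481), POSTN, the gene of periostin, fell by 1.45 (SE 0.327) and PDGFRB fell by 1.33 (SE 0.177). COL1A1, a chain of type I collagen, rose by 1.62 (SE 0.0953) there. In the mixed group POSTN fell by 1.83 (SE 0.330), and LOX fell from 297 ± 11.5 to 148 ± 6.52 normalized CPM (SD, n = 2). POSTN, at 3.26 and 3.16 normalized CPM in miRcontrol, was also lower in the other groups. It stood at 1.02 and 1.92 in miR3124_mimic and at 2.80 and 2.03 in miR92b_inhibitor.

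**Figure D5:**
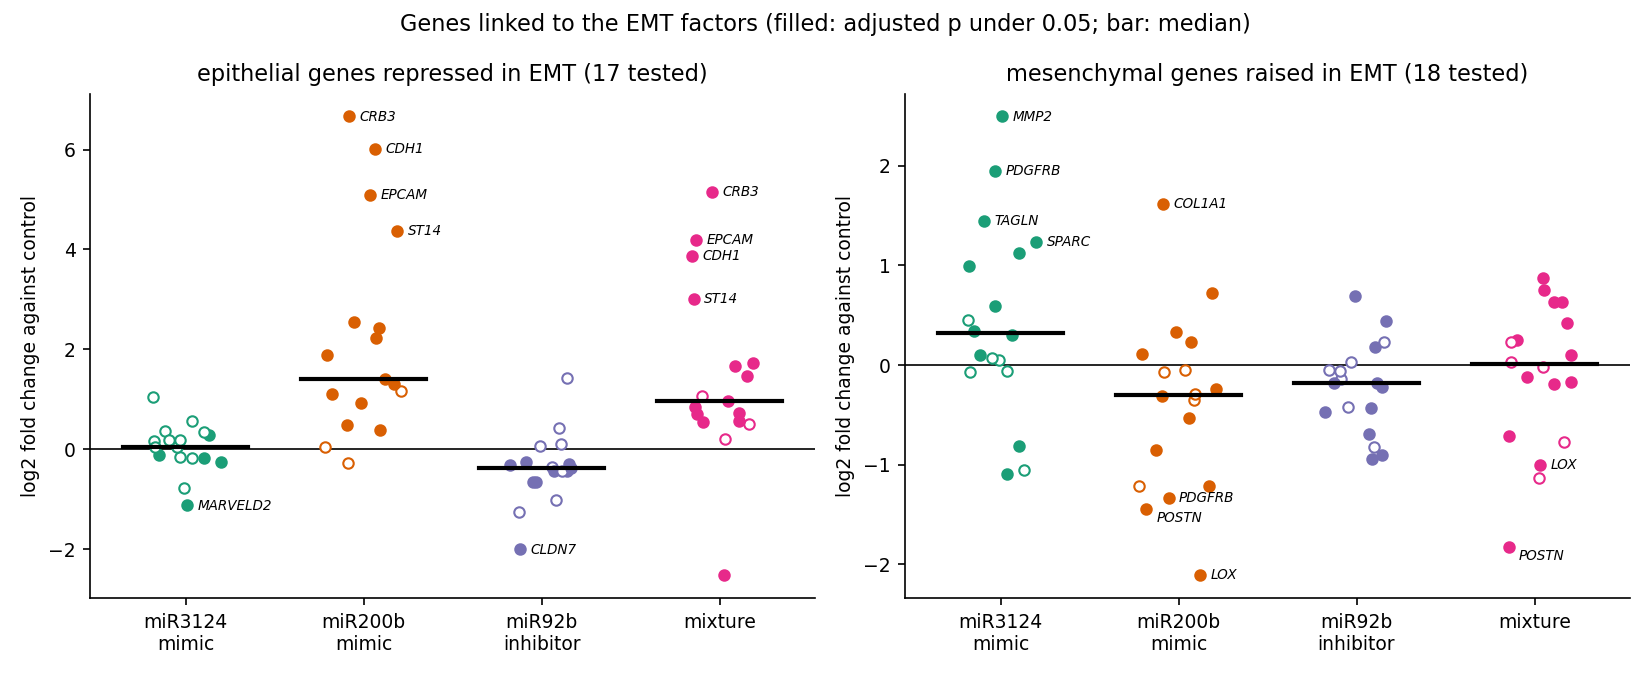
Log2 fold change against miRcontrol (y axis) of 17 epithelial and 18 mesenchymal genes in miR3124_mimic, miR200b_mimic, miR92b_inhibitor and the mixed group (mixture). Filled points have an adjusted p under 0.05, thick bars are medians (1.42 for the epithelial genes in miR200b_mimic and 0.97 in the mixed group), and points within a group are spread sideways for legibility. Fitted values of genes at the floor in 1 group, such as CRB3 and CDH1 in miRcontrol and CLDN7 in the mixed group, depend on the prior count.

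Other genes reported as targets of miR-200, a list of 14 of which 13 were tested, were mostly lower in miR200b_mimic, with 9 lower and 2 higher (median log2 fold change -0.41). The mixed group had 8 lower and 3 higher (-0.30), miR92b_inhibitor 5 lower and 3 higher (0.04), and miR3124_mimic 1 lower and 6 higher (0.05). The shares of all genes called lower and higher were 19.1% and 21.4% in miR200b_mimic and 21.1% and 21.5% in the mixed group. They were 18.2% and 17.5% in miR92b_inhibitor, and 25.3% and 25.7% in miR3124_mimic. FN1 also stands in the list of mesenchymal genes, and ETS1 in the list of other transcription factors linked to EMT. In miR200b_mimic the RNA-binding protein QKI fell by 1.57 (SE 0.0414) and the actin regulator CFL2 fell by 1.41 (SE 0.0441). The phosphatase PPM1F fell by 1.35 (SE 0.0666) and FN1, the gene of fibronectin, fell by 1.21 (SE 0.0351). These falls were near that of ZEB1 and smaller than that of ZEB2. PPM1F fell by 1.19 (SE 0.0631) in the mixed group. Without the second miR92b_inhibitor library, 4 in place of 8 genes of the list were called in miR92b_inhibitor.

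Of 16 other transcription factors linked to EMT, 11 were tested. In miR92b_inhibitor 4 were higher and none was lower (median log2 fold change 0.06), and in miR200b_mimic 1 was higher and 4 were lower (-0.06). The mixed group had 2 higher and 5 lower (-0.02), and miR3124_mimic 4 higher and 2 lower (0.23). The numbers called in either direction were near the shares of all genes, which were 35.7%, 40.6%, 42.7% and 51% in the same order, except for the mixed group, where 7 of the 11 were called. Among all genes, higher and lower calls were near equal in number in each group. HMGA2, a chromatin protein, was the only one past a fold of 2. It rose from 114 ± 6.46 normalized CPM (SD, n = 2) in miRcontrol to 304 ± 12.1 in miR3124_mimic, 265 ± 12.4 in miR200b_mimic and 374 ± 27.7 in the mixed group, by 1.42, 1.22 and 1.71 on the log2 scale. In miR92b_inhibitor HMGA2 was also above miRcontrol, at 211 ± 12.9, but short of a fold of 2. Without the first miRcontrol library, 3 in place of 5 of these factors were called in miR200b_mimic.

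Cofactors and turnover factors of ZEB and Snail proteins, 18 genes that were all tested, included 9 lower and 2 higher in miR3124_mimic (median -0.11), 3 lower and 4 higher in miR200b_mimic (3.1e-05), 5 lower and 3 higher in miR92b_inhibitor (-0.0066), and 6 lower and 1 higher in the mixed group (-0.06). The numbers called in either direction were near the shares of all genes (51%, 40.6%, 35.7% and 42.7%). By direction they leaned lower in miR3124_mimic, where 25.3% of all genes were lower and 25.7% higher. They also leaned lower in the mixed group, where 21.1% of all genes were lower and 21.5% higher. SMARCA4, the chromatin remodeling ATPase BRG1 that binds ZEB1, was the only one past a fold of 2. It fell from 267 ± 1.67 to 54.9 ± 3.64 normalized CPM (SD, n = 2) in miR3124_mimic (log2 fold change -2.29, SE 0.0481, adjusted p = 7.79e-37). SMARCA4 stood at 144 ± 0.111 in the mixed group, 247 ± 10.4 in miR200b_mimic and 221 ± 4.09 in miR92b_inhibitor. Like VIM, it lay above the sum of the 3 single changes in the mixed group (departure 1.78, SE 0.0856, adjusted p = 1.87e-21). The 8 called in miR92b_inhibitor were 5 without the first miRcontrol or the second miR92b_inhibitor library.

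Of 13 other intermediate filament genes and linkers, 6 were tested. In miR92b_inhibitor 5 were lower and none was higher (median log2 fold change -0.25), and in miR200b_mimic 3 were lower and 1 was higher (-0.11). The mixed group had 5 lower and 1 higher (-0.31), and miR3124_mimic 4 lower and 2 higher (-0.22). Among all genes 35.7%, 40.6%, 42.7% and 51% were called in the same order. By direction, 18.2% of all genes were lower and 17.5% higher in miR92b_inhibitor, and 19.1% and 21.4% in miR200b_mimic. The shares were 21.1% and 21.5% in the mixed group, and 25.3% and 25.7% in miR3124_mimic. LMNB2, the gene of the nuclear lamina protein lamin B2, fell by 1.26 on the log2 scale in miR3124_mimic (SE 0.0366), less than VIM. It was below miRcontrol, at 625 ± 4.26 normalized CPM (SD, n = 2), in the other groups too. LMNB2 stood at 376 ± 6.97 in the mixed group, 455 ± 13.7 in miR200b_mimic and 490 ± 7.87 in miR92b_inhibitor. NES, the gene of nestin, a partner of vimentin in filaments, had 1 count in each miRcontrol library, 15 and 23 in miR3124_mimic (at least 6.63-fold higher) and 13 and 6 in the mixed group (at least 2.97-fold higher). It would not have passed the filter on low counts without its rise in miR3124_mimic, so its test there is no separate support. The call of NES in the mixed group was lost without either miRcontrol library (adjusted p = 0.0557 and 0.0503) or without the first library of the mixed group (adjusted p = 0.134).

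Antisense RNAs are transcribed at 3 of the loci. ZEB1-AS1 stood at 4.12 and 3.94 normalized CPM in miRcontrol and rose to 6.94 and 8.32 in miR92b_inhibitor (log2 fold change 0.92, SE 0.178, adjusted p = 4.38e-05) and to 6.25 and 8.23 in the mixed group (0.85, SE 0.178, adjusted p = 0.000110). It was thus higher in the mixed group, where ZEB1 was lower. VIM-AS1 had 10 to 23 counts per library and no difference that passed, and ZEB2-AS1 had at most 1 count in any library. The library kit keeps strand, but the strand setting of the counting is not given in the sources used here, so reads of a gene and its antisense partner may not have been told apart.

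The patterns of the 7 genes across the 10 libraries were set against each other by the Pearson correlation of log2 normalized CPM, as a description, since the points share 5 groups and 1 normalization. ZEB1 and ZEB2 had r = 0.96. SNAI2 and VIM had r = 0.83, TWIST2 and VIM 0.85, and SNAI2 and ZEB2 -0.69. SNAI1 had no correlation above 0 with any of the other 6 genes.

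Genes whose pattern over the 10 libraries was most like that of each of the 7 were named by the Pearson correlation of log2 normalized CPM among 10413 genes. These are again descriptions. For ZEB1 they were TOB1 (r = 0.994), CRTAP (0.991) and ZNF532 (0.981). For ZEB2 they were STK4 (0.995), KDELC1 (0.985) and TLN2 (0.984). For SNAI2 they were ARHGEF2 (0.992), EIF2D (0.992) and SCO1 (0.989), and for TWIST2 they were DLEU1 (0.987), C12orf49 (0.973) and ZNF146 (0.972). VIM was most like PTBP1 (0.997), C19orf24 (0.993) and DEF6 (0.993). The values were lower for SNAI1, with GPR3 (0.917), TPRA1 (0.896) and CRTC2 (0.886), and for TWIST1, with SH3BP2 (0.912), RAB8B (0.873) and XIAP (0.862).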

How the data were processed

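mRNA of BEAS2B cells was sequenced as paired-end reads of 100 bases from poly(A)-selected, directional libraries. The authors trimmed the reads, mapped them with TopHat to GRCh38 (per the labels) and deposited raw read counts per gene, without normalization. The counting tool and its annotation are not given in the sources used here. Counts of the 5771 rows that repeat a gene symbol were summed.

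The tests used edgeR 4.0.16 (R 4.3.3, limma 3.58.1). Genes were kept by filterByExpr with a minimum count of 10 and normalized by the RLE method. All 10 libraries were fitted in 1 quasi-likelihood model without covariates, and p-values were adjusted over all 14884 genes (Benjamini-Hochberg). The common dispersion was 0.000751. Where neither library of a group exceeded 3 counts for a gene, that group was taken to lie at the floor for it, and the fold is given as a bound. The scripts were tested on simulated data. Alternatives were TMM, library totals, the DESeq2 1.42.0 Wald test, other filters, a replicate block, a fit of only the groups compared, leaving out each library, the longest 3′UTR, and Spearman correlation.

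The genes and lists were chosen with earlier results of these data known. All 7 genes are named. Of each list, up to 4 genes with the largest change past a fold of 2 and an adjusted p of 0.05 are named, with all antisense RNAs, and for likeness the 3 genes with the highest Pearson r among genes with a mean CPM of at least 5. Longest coding transcripts and positions came from GENCODE v29, and miRNAs and promoters from RefSeq. The list gene TBXT was not matched by symbol and is not analysed here. One further list of cell type markers is not reported here.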

Additional observations from a re-analysis of the deposited data

Results flagged for a closer look

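VIM in the 3-miRNA mixed group was marked because its change differed from the sum of the changes in the 3 single transfections by a test of that difference. The sum was -2.42 and the mixed group gave -0.48 on the log2 scale, a difference of 1.94 (SE 0.0641, adjusted p = 1.97e-27 by edgeR). The difference had the same direction and passed in each alternative fit of all 10 libraries. The fit of only the groups compared does not hold all 5 groups and gives no such difference. With 1 library left out it ranged from 1.87 to 2.01. VIM stood at 827 and 799 normalized CPM in miR3124_mimic, 2684 and 2775 in the mixed group and 3894 and 3707 in miRcontrol. The amount of the miR-3124-5p mimic in the mixture is not stated in the sources used here.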

How the results depend on the processing

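With 2 libraries per group, SNAI1 (8 to 41 counts per library) and differences near the threshold were the least certain. Of 870 values of the 7 genes under the alternatives, 840 kept their direction and their side of the threshold, and the 8 that reversed were differences that had not passed. These were SNAI1 between the mixed group and miR3124_mimic (-0.50 to 0.41 with 1 library left out), SNAI1 between miR200b_mimic and miR92b_inhibitor (-0.59 to 0.29), and TWIST1 in miR3124_mimic against miRcontrol (-0.059 to 0.13), in the mixed group against miR200b_mimic (-0.18 to 0.19) and in the mixed group against miR92b_inhibitor (-0.040 to 0.33). VIM-AS1 in the mixed group ranged from -0.40 to 0.69. The cause was not tested.

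With 1 library left out, 4 to 5 of the 7 genes were called in miR3124_mimic, 4 in miR200b_mimic, 3 to 4 in miR92b_inhibitor and 4 to 5 in the mixed group. The TWIST1 difference between miR3124_mimic and miR92b_inhibitor (0.38) was lost with DESeq2 (adjusted p = 0.123) and without the first miR3124_mimic library or either miR92b_inhibitor library (adjusted p = 0.0512 to 0.157). With at least 10 counts in every library, which leaves fewer genes tested, 9 in place of 14 epithelial genes were called in the mixed group. By Spearman correlation only 3 of the 21 genes most alike by Pearson were again among the most alike.

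Libraries with the same replicate number did not deviate together, with correlations from -0.0296 to 0.0538 across 14884 genes, so the numbers were not taken as pairs. With the replicate number as a block, 5, 4, 4 and 5 of the 7 genes were called in miR3124_mimic, miR200b_mimic, miR92b_inhibitor and the mixed group, as without it.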

Other observations

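Among tested genes, 75 held 1 miR-3124-5p word in the 3′UTR. Their median log2 fold change was -0.41 in miR3124_mimic, with 61.3% called lower, beside 0.0046 and 28.1% for the 12166 genes with no word. ZEB1, ZEB2, SNAI1, SNAI2, TWIST1, TWIST2 and VIM all belong to the genes with no word.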
